A study of Homo sapiens with 6 samples.

Results

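Splicing factor genes encode the proteins that remove introns from pre-mRNA. Of the 23354 genes in the deposited read-count table, 77 have symbols of 6 families of such proteins, and these were taken by symbol alone. They comprise 11 SR genes (symbols starting with SRSF), 28 hnRNP genes (HNRNP), 13 snRNP genes (SNRP followed by a letter), 9 genes of the SF3A and SF3B complexes, 3 U2AF genes and 13 PRPF genes. The symbol rule uses no measured value. The 6 RNA-seq libraries came from LNCaP, a human prostate cancer cell line that responds to androgen. In the DHT+WBM group, cells received the androgen dihydrotestosterone (DHT) at 1 nM together with white button mushroom (WBM) extract, 3 µL/mL, for 48 h (3 libraries). Cells of the DHT group received DHT at 1 nM for 48 h without the extract (3 libraries). All cells were kept in serum-containing medium and all received DHT, so no androgen-free group was analysed here. The labels name no vehicle for the extract and do not state that the triplicates were grown separately. The p-values therefore refer to the spread among these libraries alone, and that spread may be technical.

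Introns are removed by the spliceosome, which is built from small nuclear RNAs and their proteins. The snRNP genes here encode the ring of Sm proteins around those RNAs and specific proteins of the U1 and U2 particles, SF3A and SF3B help the U2 particle grip the branch point, U2AF reads the end of the intron, and the PRPF proteins bring in and activate the later particles. SR proteins bind exons and mostly favour their inclusion, whereas hnRNP proteins coat nascent RNA and often oppose it. In prostate cancer the family is studied because truncated androgen receptor variants arise by splicing, and HNRNPA1, SRSF1 and U2AF2 have been linked to that choice. The table holds 1 count per gene, so the values below are levels of transcripts and not of splice forms or proteins.

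Libraries held 19127357 to 21490953 counts in DHT+WBM and 20304623 to 21219828 in DHT, and 16511 to 16720 genes were detected in each. The groups were apart on the first principal component, which held 77.7% of the variance. Levels are given as TMM-normalised CPM, in which a library's total is multiplied by its TMM factor before scaling. The factors were 0.979 to 0.987 in DHT and 1.01 to 1.02 in DHT+WBM, so these levels are not plain shares of the counts. Libraries of a group varied by 3.39% beyond counting noise, taken over both groups. The DHT libraries differed more among themselves (chi-square per gene 3.77 to 4.33) than the DHT+WBM libraries did (1.73 to 2.02). The 10 luminal markers that define LNCaP were all detected and summed to 3639 to 3722 CPM in DHT+WBM and 5683 to 5906 CPM in DHT. Of these, 6 fell and 1 rose by the edgeR test described below, beside 29.0% lower and 29.2% higher among all tested genes. The 6 fibroblast markers summed to 14.9 to 15.6 CPM in DHT+WBM and 15.3 to 17.5 CPM in DHT, with COL1A2 at 0. The 4 endothelial markers gave 2.21 to 2.34 CPM in DHT+WBM and 2.37 to 3.27 CPM in DHT, with CDH5 at 0, and the 3 basal markers 0 to 0.0975 CPM in DHT+WBM and 0.0975 to 0.287 CPM in DHT, with KRT5 at 0. The 6 leukocyte markers summed to 84.1 to 92.4 CPM in DHT+WBM and 23.8 to 26.1 CPM in DHT, nearly all of it CD68, with PTPRC, CD3E and CD14 under 0.05 CPM on average in both groups. The 2 leukocyte markers high enough to test, CD68 and LYZ, both rose by the same test. LYZ was low, at 2.86 CPM in DHT+WBM and 2.10 CPM in DHT on average. The part of the luminal markers and of CD68 in the results below was not tested.

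The upstream sequences of a few members are shown first, because promoter motifs are a feature that the choice by symbol did not use, and their shares differed in value between roles. Promoter sequence from RefSeq (GRCh38.p14) was matched for 64 of the 77 genes, 61 of them tested for expression, and the 250 bases before the annotated start were searched on both strands for 7 fixed motifs. The printed windows are SRSF3 (chr6:36594112-36594361), HNRNPM (chr19:8444725-8444974), SNRPB2 (chr20:16729776-16730025) and SF3A2 (chr19:2236574-2236823), all on the plus strand and written 5′ to 3′. Capitals mark motif matches: a CCAAT box read on either strand and a TATA box in SRSF3, an E-box in HNRNPM, a pair of ETS matches in SNRPB2, and a GC box and an ETS match in SF3A2. All of these genes fell with the extract, and the windows need not be typical of their families. CCAAT was in 1 of 10 SR promoters, and the GC box, absent from HNRNPM, in 16 of 20 hnRNP promoters. ETS matches were in 7 of 11 snRNP and 6 of 8 SF3 promoters.
SRSF3: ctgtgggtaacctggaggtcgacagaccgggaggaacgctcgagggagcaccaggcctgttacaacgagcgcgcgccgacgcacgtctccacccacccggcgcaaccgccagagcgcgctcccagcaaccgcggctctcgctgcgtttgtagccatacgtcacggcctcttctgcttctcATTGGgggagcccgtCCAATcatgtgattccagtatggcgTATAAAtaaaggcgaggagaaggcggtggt
HNRNPM: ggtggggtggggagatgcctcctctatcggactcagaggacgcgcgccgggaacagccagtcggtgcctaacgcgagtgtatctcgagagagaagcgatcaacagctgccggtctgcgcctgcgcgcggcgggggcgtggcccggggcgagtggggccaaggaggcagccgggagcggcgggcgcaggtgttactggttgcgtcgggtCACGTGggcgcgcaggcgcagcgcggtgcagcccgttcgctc
SNRPB2: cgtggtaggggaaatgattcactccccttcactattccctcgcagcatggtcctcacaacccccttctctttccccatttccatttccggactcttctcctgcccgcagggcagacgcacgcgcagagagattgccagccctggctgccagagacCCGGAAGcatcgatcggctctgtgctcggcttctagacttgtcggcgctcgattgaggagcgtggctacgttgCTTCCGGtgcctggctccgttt
SF3A2: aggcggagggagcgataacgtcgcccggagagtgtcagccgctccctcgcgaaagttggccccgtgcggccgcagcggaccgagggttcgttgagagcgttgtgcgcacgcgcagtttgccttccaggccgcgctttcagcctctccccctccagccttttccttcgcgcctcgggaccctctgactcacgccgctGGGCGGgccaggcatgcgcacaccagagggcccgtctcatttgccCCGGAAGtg

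The ETS motif CCGGAAG, the core that ETS-family factors recognise, was present in 21 of the 61 members (34.4%), against 15.8% of the promoters of all tested genes and 8.82% of all 27305 promoters. It was held by 7 of 11 snRNP promoters (63.6%) and 6 of 8 SF3 promoters (75%), but by 2 of 10 SR and 3 of 20 hnRNP promoters. The E-box CACGTG, the core bound by MYC and related factors, was found in 7 members (11.5%) against 9.05% of tested genes, and 6 of these 7 were hnRNP genes. CCAAT lay in 25 members (41%) against 35.1% of tested genes, including 6 of 9 PRPF, 13 of 20 hnRNP, 4 of 11 snRNP, 1 of 8 SF3 and 1 of 10 SR promoters. The GC box GGGCGG was held by 37 members (60.7%) and 67.2% of tested genes. TATAAA stood in 6 members (9.84%) and 5.26% of tested genes. The hexamer AGAACA, the core of androgen response elements, was found in 4 members (6.56%) and 7.32% of tested genes, and the NRF1 palindrome in 0 members and 2% of tested genes. The E-box and the NRF1 palindrome read the same on both strands, and matches of different motifs may share bases. ETS matches stood in 15 of the 39 promoters of members that fell with the extract (38.5%) and in 6 of the 22 promoters of the other members (27.3%). The order was the opposite for CCAAT, in 13 of 39 (33.3%) of those that fell and 12 of 22 (54.5%) of the others, and for the E-box, in 7.69% of those that fell and 18.2% of the others. These splits were not tested. These are matches of letters in a window, and no factor's binding was measured.

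Splicing factor genes were mostly lower with the extract. With p adjusted over all 13466 tested genes (quasi-likelihood test of edgeR, Benjamini-Hochberg), 45 of the 69 tested members fell in DHT+WBM, 4 rose and 20 did not pass the threshold of 0.05. Among all tested genes, 29.0% fell and 29.2% rose, 58.2% in all. The median log2 fold change (DHT+WBM over DHT) was -0.17 over the members and 0.00 over all tested genes, and the members ranged between -0.78 for HNRNPA1 and 0.37 for SRSF12. No member changed 2-fold. In 48 members every DHT+WBM library lay below every DHT library, a pattern shown by 31.1% of tested genes, and in 5 members the order was the opposite (62.2% of tested genes had groups apart in either direction). Each library gives 1 value per gene over all its cells, so fewer cells making a transcript and less of it per cell cannot be told apart. TMM-normalised CPM are also relative levels, so a change in total RNA per cell would not show.

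The members are abundant genes, with a median level of 139 CPM against 30.2 CPM over all tested genes. Among genes at or above 50 CPM, 37.5% fell, and of the 57 members at that level 41 fell (71.9%), 3 rose and 13 did not pass. Falls past a log2 fold change of -0.3 were found in 15.3% of tested genes and in 21 members: 7 SR, 6 hnRNP, 6 snRNP and 2 PRPF genes, and 0 of SF3 and U2AF. The 8 members too low to test were HNRNPCL1, HNRNPCL2, HNRNPCL3, HNRNPA1P33, HNRNPA3P1, HNRNPKP3, HNRNPUL2-BSCL2 and SNRPD2P2, of which 4 are pseudogenes and 1 is a readthrough entry. Their means were under 0.5 CPM in both groups, and 4 of them had no count in any library.

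**Figure D1:**
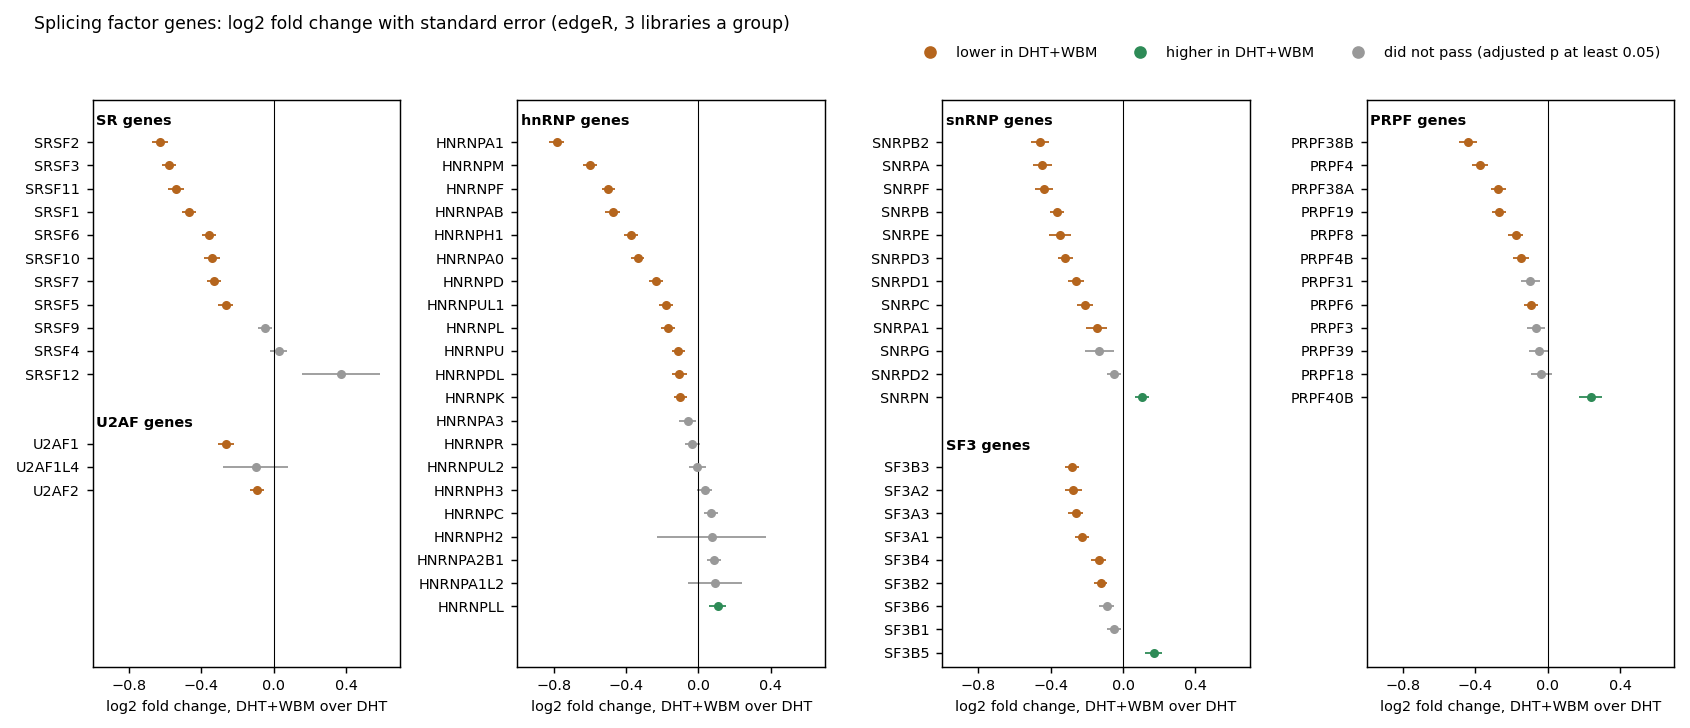
Log2 fold change (DHT+WBM over DHT, horizontal axis) of the tested splicing factor genes that are reported singly, with standard errors as bars, grouped by role and coloured by the edgeR call at an adjusted p of 0.05. Most points lie left of 0, with HNRNPA1 farthest left at -0.78, and the 4 rises (HNRNPLL, SNRPN, SF3B5 and PRPF40B) lie between 0.10 and 0.24.

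The SR, hnRNP and snRNP families are set side by side here, and differences between them were not tested. Among all tested genes 29.0% fell and 29.2% rose. At or above 50 CPM, where most members lie, 37.5% fell and 26.8% rose. Of the tested SR genes, 8 of 11 fell, 0 rose and 3 did not pass, with a median log2 fold change of -0.34. Of the hnRNP genes, 12 of 21 fell, 1 rose and 8 did not pass, with a median of -0.10. The snRNP genes had 9 of 12 lower, 1 higher and 2 that did not pass, with a median of -0.29. The hnRNP split depended on the scaling, since upper-quartile factors or library totals alone gave 9 lower and 3 higher. Of the remaining families, 6 of 9 SF3 genes fell and 1 rose (median -0.14), 2 of 3 U2AF genes fell (median -0.10), and 8 of 13 PRPF genes fell and 1 rose (median -0.12).

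Among the families, SR genes had the lowest median. SRSF2 (chromosome 17, 74730197 to 74733493, minus strand, hg19), a nuclear speckle protein that activates exons, stood at 153, 169 and 156 CPM in DHT+WBM and at 248, 256 and 235 CPM in DHT. The groups did not overlap, and SRSF2 was lower at -0.63 ± 0.04 on the log2 scale (SE, edgeR adjusted p = 9.37e-16). SRSF2 shares 1222 bases with MFSD11 on the opposite strand, whose log2 fold change was -0.18 at 40.5 CPM. SRSF3 (chromosome 6, 36562090 to 36572244, plus strand), the smallest SR protein and an adaptor for mRNA export, measured 274, 264 and 264 CPM in DHT+WBM and 393, 406 and 399 CPM in DHT. All 3 DHT+WBM libraries were far below the DHT libraries, at -0.58 ± 0.04 on the log2 scale (edgeR adjusted p = 3.42e-16).

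SRSF1 (chromosome 17, 56078280 to 56084707, minus strand), the founding SR protein and a proto-oncoprotein, had the highest CPM of the family. Its libraries read 390.1, 373 and 379 CPM in DHT+WBM and 505, 548 and 526 CPM in DHT, without overlap. The log2 fold change was -0.47 ± 0.04 (edgeR adjusted p = 3.89e-13). SRSF11 (chromosome 1, 70671365 to 70717701), an SR-related protein of the speckles, fell to 126 ± 6.98 CPM in DHT+WBM, against 184 ± 5.82 CPM in DHT (SD, n = 3 each), a log2 fold change of -0.54 ± 0.04.

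Falls of SRSF6, SRSF10, SRSF7 and SRSF5 were smaller, with log2 fold changes of -0.36, -0.34, -0.33 and -0.27, and in each the groups did not overlap. SRSF10 is the family member known as a repressor once dephosphorylated, and SRSF7 also serves mRNA export. SRSF9 (chromosome 12, 120899471 to 120907558), a small SR protein close to SRSF1, did not pass. It had 228, 224 and 222 CPM in DHT+WBM and 226, 234 and 237 CPM in DHT, which overlap, and the 95% interval of its log2 fold change ran between -0.12 and 0.03. Per kilobase of transcript SRSF9 was the most abundant SR gene, at 136 CPM per kilobase in DHT+WBM and 141 in DHT, while SRSF1 had 67.5 in DHT+WBM and 93.4 in DHT. SRSF4 gave 73.0 ± 2.15 CPM in DHT+WBM and 71.6 ± 2.10 CPM in DHT, with an interval of -0.06 to 0.12 on the log2 scale. SRSF12 was near the limit of detection with 2.58, 1.69 and 1.57 CPM in DHT+WBM and 1.43, 1.46 and 1.61 CPM in DHT (log2 fold change 0.37 ± 0.22, edgeR adjusted p = 0.138).

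**Figure D2:**
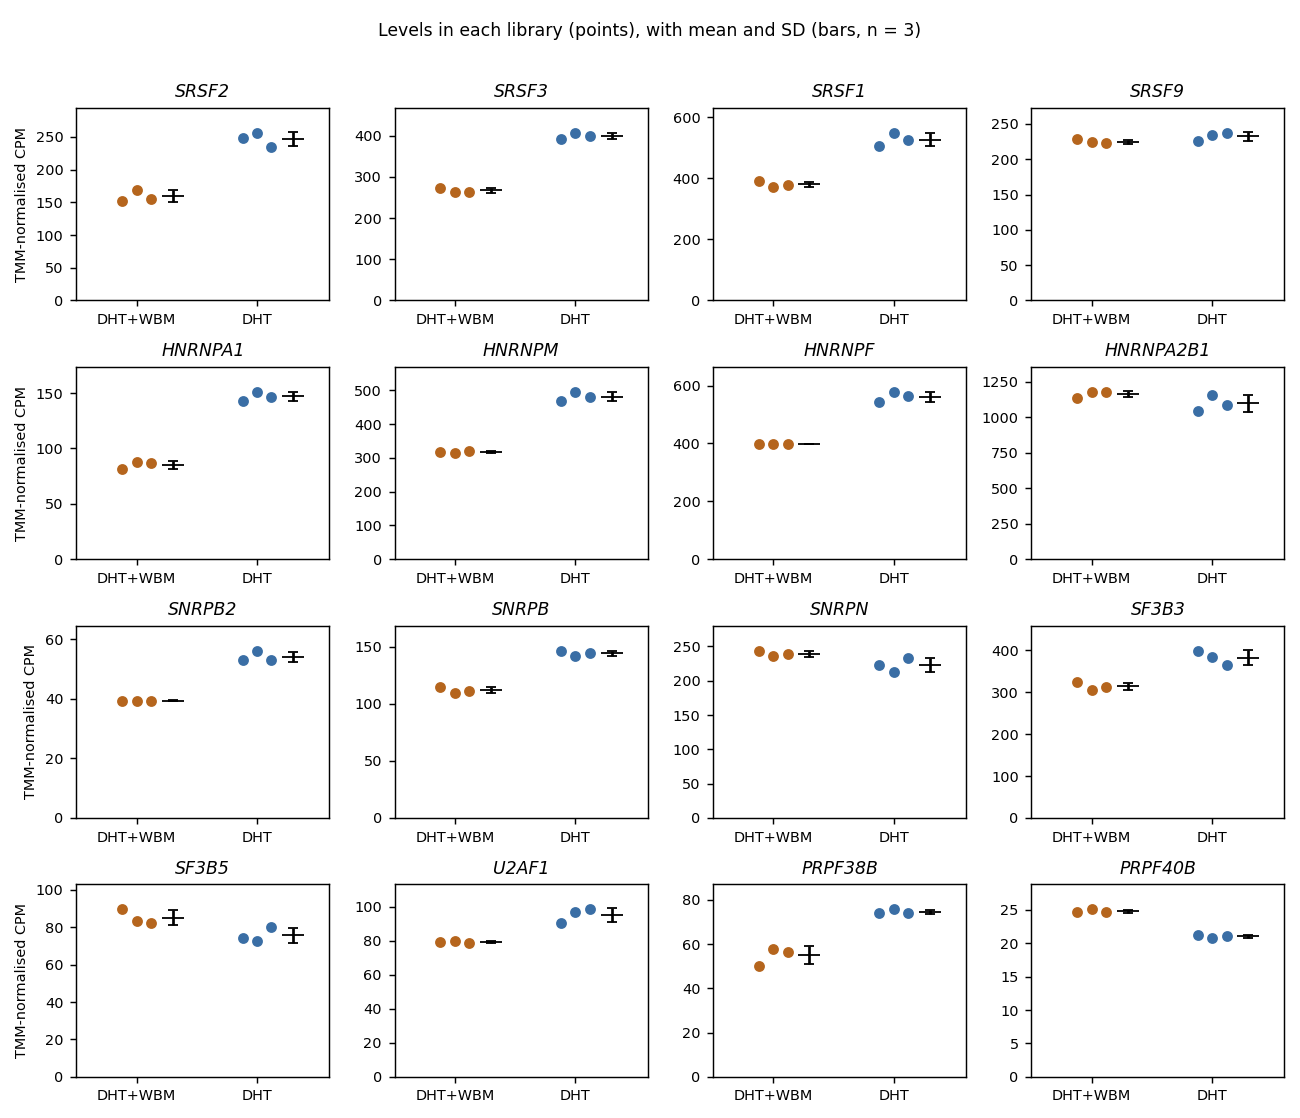
TMM-normalised CPM (vertical axes, each starting at 0) of 16 splicing factor genes in each of 3 DHT+WBM and 3 DHT libraries (points), with mean and SD beside them. The libraries of the groups are apart for 14 of these genes, 11 of them lower in DHT+WBM, and overlap for SRSF9 and HNRNPA2B1. Most of the 16 are among the largest falls or rises of their family, so this count follows from the choice. Over all tested genes, 62.2% had groups apart in either direction and 31.1% were apart and lower.

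Within the hnRNP family, deep falls stood beside genes whose groups overlapped. HNRNPA1 (chromosome 12, 54674488 to 54680872, plus strand), which binds splicing silencers and opposes SR proteins, had the largest fall of all members. Its libraries held 81.2, 87.6 and 87.1 CPM in DHT+WBM and 143, 151 and 146 CPM in DHT. These groups lay far apart, at -0.78 ± 0.04 on the log2 scale (edgeR adjusted p = 1.83e-18), and 4.09% of tested genes had as low a value or lower. HNRNPA1 has many processed copies in the genome, so reads can be lost or credited to another copy, and its level is uncertain. Its near-identical relative HNRNPA1L2 read 3.40 ± 0.270 CPM in DHT+WBM and 3.19 ± 0.262 CPM in DHT (log2 fold change 0.09 ± 0.15).

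HNRNPM (chromosome 19, 8509803 to 8554002, plus strand), a regulator of exon choice in epithelial and mesenchymal states, measured 318, 315 and 319.7 CPM in DHT+WBM and 469, 495 and 479.8 CPM in DHT. The log2 fold change was -0.60 ± 0.04 (edgeR adjusted p = 1.19e-16), with no overlap. HNRNPF (chromosome 10, 43881065 to 43904696), which binds G-rich tracts, gave 397, 399 and 397 CPM in DHT+WBM and 544, 578 and 564 CPM in DHT, a log2 fold change of -0.50 ± 0.04. Its 3 DHT+WBM libraries differed little among themselves, and none came near the DHT libraries. HNRNPAB (chromosome 5, 177631508 to 177638184), an RNA-binding protein of the A/B type, stood at 154 ± 0.615 CPM in DHT+WBM and 214 ± 12.9 CPM in DHT (log2 fold change -0.47 ± 0.04).

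Intermediate falls were found in HNRNPH1 (-0.37), HNRNPA0 (-0.34), HNRNPD (-0.24), HNRNPUL1 (-0.18) and HNRNPL (-0.17). HNRNPD is known for binding AU-rich elements that govern mRNA decay, and HNRNPL binds CA repeats. HNRNPL overlaps ECH1 on the same strand by 14407 bases, and ECH1 had a log2 fold change of 0.33 at 145 CPM. HNRNPH1 shares long stretches with HNRNPH2, which was listed at 0.882 ± 0.381 CPM in DHT+WBM and 0.832 ± 0.0400 CPM in DHT, so the split between the copies is uncertain.

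Small shifts were measured in several very abundant hnRNP genes. HNRNPU, a chromatin-associated scaffold, was at -0.11 on the log2 scale (edgeR adjusted p = 0.0134), a call lost in 5 of 15 alternatives (adjusted p up to 0.138), among them those without DHT+WBM replicate 1 or DHT replicate 2. HNRNPDL was at -0.10 (edgeR adjusted p = 0.0282), a call lost in 6 of 15 (adjusted p up to 0.218), among them those without DHT+WBM replicate 2 or 3 or DHT replicate 2. HNRNPK (chromosome 9, 86582998 to 86595569), which binds C-rich RNA, read 814, 818 and 811 CPM in DHT+WBM and 850.1, 899 and 869.8 CPM in DHT, without overlap. Its log2 fold change of -0.10 ± 0.04 (edgeR adjusted p = 0.0200) lost its call with upper-quartile factors (adjusted p = 0.102) and library totals (0.200), with the stricter threshold of 0.01, and without DHT replicate 2 (0.0666). HNRNPA2B1 (chromosome 7, 26229556 to 26240413), a close relative of HNRNPA1 and the most abundant member per kilobase, had 1136, 1177 and 1175 CPM in DHT+WBM and 1045, 1159 and 1085 CPM in DHT. These overlap, and the log2 fold change of 0.09 ± 0.04 did not pass (edgeR adjusted p = 0.0616), although it did with upper-quartile factors (0.12, adjusted p = 0.00866) and library totals (0.13, adjusted p = 0.00295), with voom (adjusted p = 0.0331), and without DHT replicate 2 (0.12, adjusted p = 0.00585).

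HNRNPC (chromosome 14, 21677296 to 21737638), which binds U-rich tracts and guards cryptic exons, gave 320.1, 317 and 315 CPM in DHT+WBM and 290.4, 304 and 312 CPM in DHT. Every DHT+WBM library was above every DHT library, yet the log2 fold change of 0.07 ± 0.04 did not pass (edgeR adjusted p = 0.117), other than with upper-quartile factors (adjusted p = 0.0192) and library totals (0.00760). HNRNPLL, a paralog of HNRNPL known for its role in lymphocyte splicing, was the 1 hnRNP rise, with 66.0, 63.2 and 63.9 CPM in DHT+WBM and 58.8, 59.0 and 61.4 CPM in DHT. Its log2 fold change of 0.11 ± 0.05 was at the threshold (edgeR adjusted p = 0.0480), and the call was lost in 10 of 15 alternatives, among them each of the 3 fits without a DHT+WBM library and those without DHT replicate 1 or 2 (adjusted p up to 0.215). The remaining genes that did not pass, HNRNPA3, HNRNPR, HNRNPUL2 and HNRNPH3, had log2 fold changes of -0.06, -0.03, -0.01 and 0.04 and overlapping groups.

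Among the snRNP genes, those for particle-specific proteins and for most of the Sm ring were lower. SNRPB2 (chromosome 20, 16710609 to 16722417, plus strand), a U2 particle protein whose promoter is printed above, had 39.2, 39.3 and 39.4 CPM in DHT+WBM and 53.0, 56.1 and 53.2 CPM in DHT. The groups were clearly apart, at -0.46 ± 0.05 on the log2 scale (edgeR adjusted p = 7.37e-10). SNRPA (chromosome 19, 41256759 to 41271297), its counterpart in the U1 particle, stood at 41.1 ± 0.784 CPM in DHT+WBM and 56.0 ± 2.38 CPM in DHT (log2 fold change -0.45 ± 0.05). Both other particle proteins also fell, with log2 fold changes of -0.21 for SNRPC of U1 and -0.14 for SNRPA1 of U2. The SNRPA1 call (edgeR adjusted p = 0.0326) was lost in 7 of 15 alternatives (adjusted p up to 0.15), among them those without DHT+WBM replicate 2 or 3 or DHT replicate 2.

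Of the Sm ring genes, SNRPF (chromosome 12, 96252709 to 96260238) had 46.3, 43.8 and 47.8 CPM in DHT+WBM and 60.1, 64.8 and 61.8 CPM in DHT, a log2 fold change of -0.44 ± 0.05. Further falls were -0.35 for SNRPE, -0.32 for SNRPD3 and -0.26 for SNRPD1, all without overlap. SNRPD2 and SNRPG, partners in the same ring, did not pass, at -0.05 (interval -0.13 to 0.03) and -0.13 (interval -0.29 to 0.03), although their groups were apart. SNRPD2 had the highest level per kilobase among snRNP genes, 141 CPM per kilobase in DHT+WBM and 146 in DHT.

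SNRPB and SNRPN encode alternative proteins for the same place in the Sm ring, and SNRPB fell while SNRPN rose. SNRPB (chromosome 20, 2442281 to 2451499, minus strand) read 115, 109.5 and 111 CPM in DHT+WBM and 146, 142 and 144 CPM in DHT, or -0.36 ± 0.04 on the log2 scale (edgeR adjusted p = 7.63e-10). SNRPN (chromosome 15, 25068794 to 25244225, plus strand), an imprinted gene best known from neurons, read 244, 235 and 239 CPM in DHT+WBM and 223, 213 and 232 CPM in DHT. It rose by 0.10 ± 0.04 on the log2 scale (edgeR adjusted p = 0.0226), a call lost without DHT+WBM replicate 1 (adjusted p = 0.140), without DHT+WBM replicate 3 (0.0799), without DHT replicate 2 (0.124) and at the threshold of 0.01. The proteins are close paralogs, and the SNRPN interval also spans PWAR5, whose log2 fold change was -1.05 at 10.5 CPM, so reads may be credited to the wrong entry.

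The SF3 genes that fell had log2 fold changes between -0.28 and -0.12. SF3B3 (chromosome 16, 70557691 to 70611571), a scaffold subunit, had 323, 306 and 313 CPM in DHT+WBM and 399, 383 and 364 CPM in DHT, or -0.28 ± 0.04 on the log2 scale (edgeR adjusted p = 1.08e-07). SF3A2, SF3A3 and SF3A1, which make up the SF3A complex, fell alike, by log2 fold changes of -0.27, -0.26 and -0.23. SF3B4 and SF3B2 followed at -0.14 and -0.12, and both lost their calls with library totals (adjusted p up to 0.0692), SF3B4 also without DHT replicate 3. SF3B1 (chromosome 2, 198256698 to 198299771), which clamps the branch point and is often mutated in blood cancers, gave 456, 461 and 474 CPM in DHT+WBM and 469, 501 and 469 CPM in DHT. Those groups overlap, and the interval of its log2 fold change ran between -0.13 and 0.03 (edgeR adjusted p = 0.272). SF3B6, which touches the branch point and had the highest level per kilobase of the SF3 genes, did not pass (-0.09 ± 0.04, edgeR adjusted p = 0.0606), though it did without DHT replicate 1 and in 3 further alternatives. SF3B5 (chromosome 6, 144416018 to 144416754), the smallest subunit, rose, with 89.5, 83.6 and 82.6 CPM in DHT+WBM and 74.1, 72.8 and 80.2 CPM in DHT (log2 fold change 0.17 ± 0.05, edgeR adjusted p = 0.00213).

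U2AF1 and U2AF2 form the heterodimer that reads the end of the intron. U2AF1 (chromosome 21, 44513066 to 44527688), which contacts the terminal AG, stood at 79.4, 79.9 and 78.5 CPM in DHT+WBM and 90.5, 96.7 and 98.3 CPM in DHT. Its log2 fold change was -0.26 ± 0.04 (edgeR adjusted p = 3.46e-06), with the groups apart. U2AF2 (chromosome 19, 56165416 to 56186082), which binds the polypyrimidine tract, had 320.2, 303 and 313 CPM in DHT+WBM and 337, 327 and 333 CPM in DHT. Its log2 fold change of -0.09 ± 0.04 (edgeR adjusted p = 0.0361) lost its call in 7 of 15 alternatives, with adjusted p values of 0.0361 to 0.301 in those: upper-quartile factors, library totals, the threshold of 0.01, and the fits without DHT+WBM replicate 2 or 3 or without DHT replicate 1 or 3. U2AF1L4, at 2.75 ± 0.617 CPM in DHT+WBM and 2.96 ± 0.696 CPM in DHT, did not pass.

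Falls among the PRPF genes were led by PRPF38B. This relative of the activation factor PRPF38A (chromosome 1, 109234932 to 109244422 for PRPF38B) had 50.3, 58.0 and 56.5 CPM in DHT+WBM and 74.0, 75.7 and 74.0 CPM in DHT. The log2 fold change was -0.44 ± 0.05 (edgeR adjusted p = 1.10e-09), and the groups were apart. PRPF4 (chromosome 9, 116037914 to 116055185), of the U4/U6 particle, gave 65.9, 67.1 and 67.3 CPM in DHT+WBM and 86.7, 89.4 and 83.7 CPM in DHT (log2 fold change -0.38 ± 0.04). Its binding partner PRPF3 did not pass, at -0.06 with an interval of -0.16 to 0.03. PRPF38A and PRPF19, a ubiquitin ligase needed for activation, both had a log2 fold change of -0.27.

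PRPF8 (chromosome 17, 1553923 to 1588176), the scaffold of the catalytic core, read 576, 539 and 598 CPM in DHT+WBM and 683, 648 and 606 CPM in DHT. The highest DHT+WBM library lay just under the lowest DHT library, and the log2 fold change was -0.18 ± 0.04 (edgeR adjusted p = 4.98e-04). The kinase gene PRPF4B (-0.15) and the bridging factor PRPF6 (-0.09, edgeR adjusted p = 0.0470) also fell. PRPF6 lost its call in 7 of 15 alternatives (adjusted p up to 0.328), among them those without DHT+WBM replicate 2 or 3 or DHT replicate 2, and PRPF4B without DHT replicate 2 (adjusted p = 0.0549). PRPF31, PRPF39 and PRPF18 did not pass, at -0.10, -0.05 and -0.04, although PRPF31 did without DHT+WBM replicate 1 (adjusted p = 0.0339). PRPF40B (chromosome 12, 50017197 to 50038452), an early-acting factor of the family, rose, with 24.6, 25.1 and 24.7 CPM in DHT+WBM and 21.3, 20.7 and 21.1 CPM in DHT (log2 fold change 0.24 ± 0.06, edgeR adjusted p = 0.00169).

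Summed over its members, each family took a smaller share of the counts in every DHT+WBM library than in any DHT library. The hnRNP share was 0.621 to 0.628% in DHT+WBM and 0.663 to 0.697% in DHT. For U2AF it was 0.0392 to 0.0410% in DHT+WBM and 0.0417 to 0.0429% in DHT. The sums in CPM that follow use the TMM factors, which make the falls larger than in these shares. SR genes summed to 1735 ± 21.4 CPM in DHT+WBM and 2292 ± 46.2 CPM in DHT (SD, n = 3 each), a change of -24.3%. The hnRNP genes summed to 6139.6 ± 29.1 CPM in DHT+WBM and 6888 ± 211 CPM in DHT (-10.9%). For snRNP genes the sums were 988 ± 16.9 CPM in DHT+WBM and 1133 ± 16.7 CPM in DHT (-12.8%). The SF3, U2AF and PRPF sums changed by -9.84%, -8.49% and -11.6%. A few genes weigh heavily in these sums: HNRNPA2B1 alone gave 18.9% of the hnRNP sum in DHT+WBM and 15.9% in DHT, and SNRPN gave 24.2% of the snRNP sum in DHT+WBM and 19.7% in DHT. All 77 genes together took 1.30 to 1.31% of the counts of a DHT+WBM library and 1.44 to 1.48% of those of a DHT library.

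**Figure D3:**
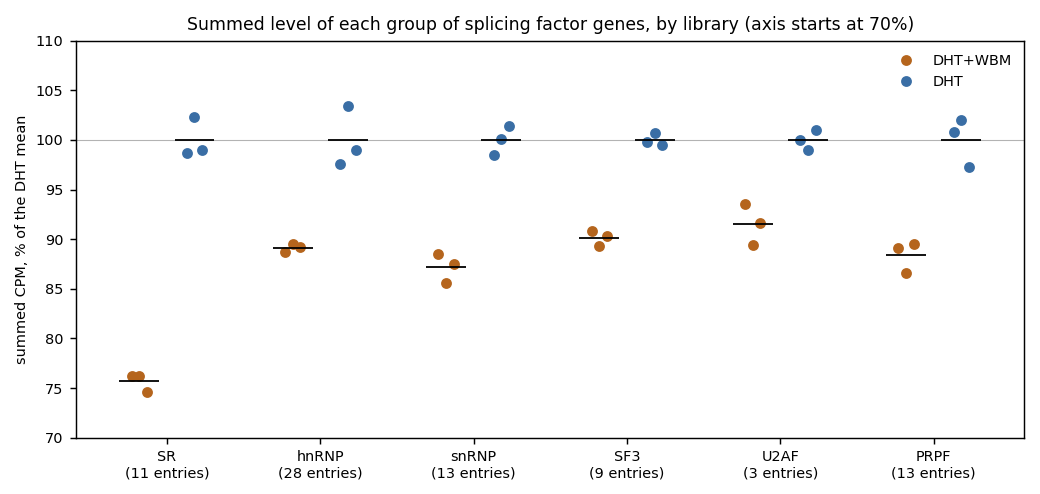
Summed CPM of each family in each library as a percentage of the DHT mean (vertical axis, starting at 70%), with DHT+WBM left of DHT and the group means as lines. In every family the 3 DHT+WBM libraries lie below the 3 DHT libraries, with the SR sum lowest (-24.3%).

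Ratios between related genes within a library do not depend on scaling, and 14 pairs of relatives were compared this way. The pairs were picked with their counts known and mostly join a gene that fell with one that did not, so that their separation is a description. The ratio of HNRNPA1 to HNRNPA2B1 counts was 0.0715, 0.0744 and 0.0741 in DHT+WBM and 0.137, 0.130 and 0.135 in DHT. SNRPB to SNRPN stood at 0.472, 0.465 and 0.464 in DHT+WBM and 0.656, 0.665 and 0.620 in DHT. Both ratios were lower in every DHT+WBM library. SRSF1 to SRSF9 averaged 1.69 ± 0.0253 in DHT+WBM and 2.27 ± 0.0633 in DHT (SD, n = 3 each). SRSF6 to SRSF4 averaged 2.54 ± 0.0713 in DHT+WBM and 3.32 ± 0.117 in DHT. HNRNPF to HNRNPH3 averaged 2.66 ± 0.0508 in DHT+WBM and 3.85 ± 0.0707 in DHT. Each of these SR and hnRNP ratios was lower with the extract. U2AF1 to U2AF2 stood at 0.254 ± 0.00840 in DHT+WBM and 0.286 ± 0.0155 in DHT. The groups were apart for all 14 pairs, which the choice of pairs made likely. A two-sided exact permutation test gave p = 0.1 for each, the smallest that 3 against 3 libraries allow (0.1 after adjustment over the 14). Given that choice, the test adds nothing to the description.

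**Figure D4:**
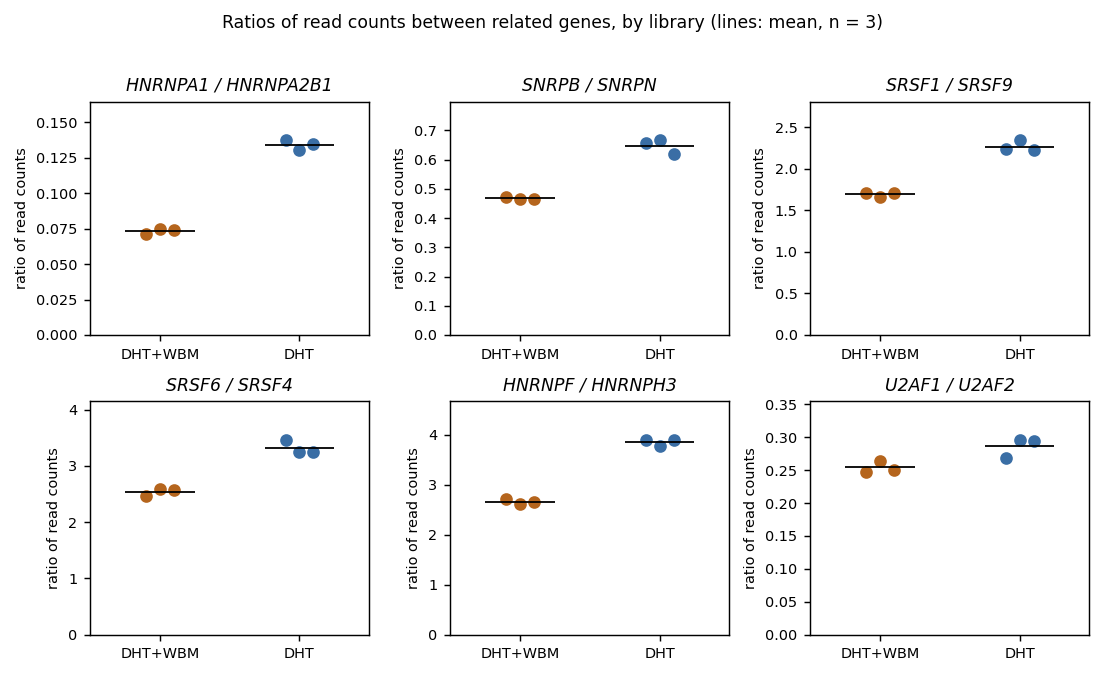
Ratios of read counts between 6 pairs of related splicing factor genes (vertical axes, starting at 0) in each DHT+WBM and DHT library, with the group mean as a line. The ratio is lower in all 3 DHT+WBM libraries for each of these pairs, such as 0.0733 against 0.134 on average for HNRNPA1 to HNRNPA2B1. The pairs were picked with their counts known.

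Other genes of the splicing pathway were counted by list, beside the background of 29.0% lower and 29.2% higher among all tested genes. At or above 50 CPM these shares were 37.5% and 26.8%. The lists differ in level, and the other splicing regulators had a median of 148 CPM, against 30.2 CPM over all tested genes. All these lists were chosen with earlier results of these data known, so their counts are a description. The list of other splicing regulators held 34 tested genes, of which 28 fell, 3 rose and 3 did not pass (median log2 fold change -0.26). NONO, a paraspeckle protein, stood at 339 ± 0.982 CPM in DHT+WBM and 497 ± 7.95 CPM in DHT (log2 fold change -0.55 ± 0.04), and SRRM1, a coactivator that works with SR proteins, at 73.0 ± 3.22 CPM in DHT+WBM and 108 ± 2.81 CPM in DHT (-0.57 ± 0.04). The rises in that list were MBNL2 (0.34), KHDRBS3 (0.61) and PTBP3 (0.10). KHDRBS3 had a mean of only 3.89 CPM, and its groups overlapped. For the exon junction complex and mRNA export, 15 of 22 genes fell, 2 rose and 5 did not pass (median -0.21). The export adaptor ALYREF read 59.9 ± 5.00 CPM in DHT+WBM and 95.2 ± 2.32 CPM in DHT (log2 fold change -0.67 ± 0.05), and the junction complex gene MAGOHB 16.5 ± 0.760 CPM in DHT+WBM and 27.7 ± 0.267 CPM in DHT (-0.75 ± 0.07).

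LSm proteins and the factors that assemble snRNPs had 13 of 24 tested genes lower, 1 higher and 10 that did not pass (median -0.17). GEMIN4 (-0.36) and GEMIN5 (-0.40), both of the SMN complex that loads the Sm ring, were among the falls, and LSM10 (0.20) was the rise. Other snRNP and recruitment proteins had 14 of 25 lower, 1 higher and 10 that did not pass (median -0.12), with SNRNP48 at -0.42 and SNRNP40 at -0.39, and CD2BP2 as the rise (0.23). Factors of the catalytic spliceosome had 6 of 23 lower (26.1%), 0 higher and 17 that did not pass (median -0.04). The strongest of these falls by p were in CRNKL1 (-0.23) and PPIL1 (-0.16).

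The kinases, phosphatase and importer that handle SR proteins made up a further list. Of its 8 tested genes 1 fell, 0 rose and 7 did not pass (median -0.04). The fall was in the phosphatase PPM1G, at 173 ± 2.03 CPM in DHT+WBM and 194 ± 2.38 CPM in DHT (log2 fold change -0.16 ± 0.04, edgeR adjusted p = 4.22e-04). CLK2, a kinase of SR proteins, was at -0.15 ± 0.07 (edgeR adjusted p = 0.0772), and SRPK1 and CLK1 were at -0.05 and -0.02. Of 8 tested proteins of the minor spliceosome, which removes a rare class of introns, 2 fell, 2 rose and 4 did not pass. ZCRB1 rose to 126 ± 3.29 CPM in DHT+WBM, against 95.7 ± 3.91 CPM in DHT (log2 fold change 0.40 ± 0.04, edgeR adjusted p = 3.85e-10), while SNRNP48 fell. SNRNP48, SNRNP25 and SNRNP35 stand in both the minor and the recruitment lists.

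**Figure D5:**
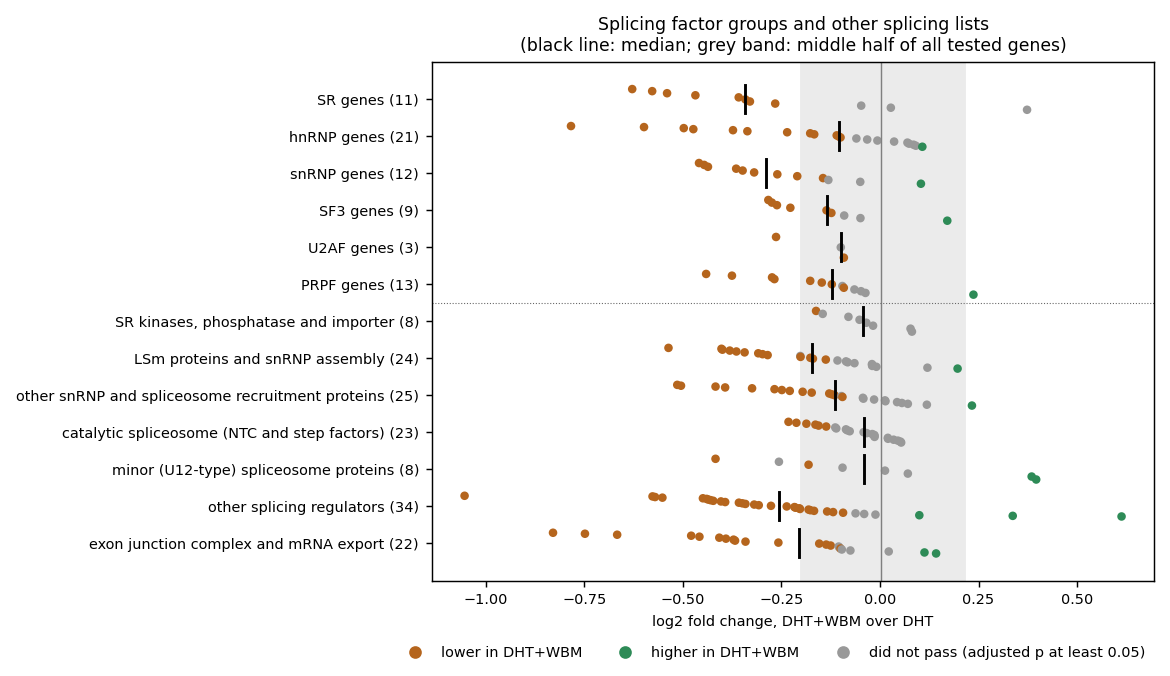
Log2 fold changes (DHT+WBM over DHT, horizontal axis) of the tested genes of each splicing factor family and, under the dotted line, of 7 other splicing lists, with numbers of tested genes in parentheses, medians as black lines and the interquartile range of all tested genes as a grey band. Medians lie farthest left for SR (-0.34) and snRNP genes (-0.29), and near 0 for the SR kinases, the catalytic factors and the minor spliceosome (-0.04 each).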

How the data were processed

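RNA from 3 DHT+WBM and 3 DHT libraries of LNCaP cells was compared. The deposited table gives, for every gene, its location, orientation and length in kilobases and the authors' unnormalised whole-number read count in each library. Per the submitters' processing notes, edgeR 3.28.1, HTSeq 0.6.0, STAR 2.6.0 and bcl2fastq 2.18.0.12 were used, with hg19 as the build and no role or order given. For the annotation and strand setting, none is given in the sources used here, so overlapping genes and near-identical copies may share reads. Columns were matched to samples by the code in each title, and 0 columns of values went unused. Depth was 19127357 to 21490953 counts, which leaves genes near 1 CPM with wide errors.

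Counts were fitted in R 4.3.3 with edgeR 4.0.16 over the whole table: filterByExpr (minimum count 10 in 3 libraries, minimum total 15), TMM factors, the quasi-likelihood F-test with no covariate, two-sided, and Benjamini-Hochberg adjustment over 13466 genes. SE is the absolute log2 fold change divided by the square root of F, and intervals are at 95%. Levels of different genes are compared as CPM per kilobase. The fit was checked on simulated counts, and counts of different libraries differed beyond sampling noise. Alternatives were RLE, upper-quartile and library-total scaling, no filter, a 1 CPM filter, DESeq2 1.42.0, voom in limma 3.58.1, the replicate number as a block, a threshold of 0.01, and each library left out.

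Members, pairs, motifs and the other splicing lists were chosen with earlier results of these data known. Full values go, in each family, to up to 4 rises and 4 falls with the largest change at a mean of at least 5 CPM, the gene with the highest level per kilobase, and fixed genes (SRSF1, SRSF2, SRSF3, HNRNPA1, HNRNPA2B1, HNRNPC, HNRNPK, SNRPB, SNRPN, SF3B1, U2AF1, U2AF2, PRPF8). From each other list the 2 genes with the smallest p are given, and further genes were named after their values were seen. The marker and splicing lists were matched by symbol, and NHP2L1 was found as SNU13. Promoter sequences come from RefSeq (GRCh38.p14) and are not placed on the hg19 coordinates of the table. Some genes that are counted in the families and lists are not reported here singly.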

Additional observations from a re-analysis of the deposited data

How the results depend on the processing

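Of the 49 members that rose or fell, 37 kept the call and its sign in all 15 alternatives, 12 lost the call in at least 1, and 0 changed sign. Of the 20 that did not pass, 4 (HNRNPC, HNRNPA2B1, SF3B6 and PRPF31) passed in at least 1. SR genes gave 8 falls and 0 rises in every alternative. The number of members lower, 45, was 47 with no filter, 46 with the 1 CPM filter, 43 with DESeq2, 36 with library totals, 39 with upper-quartile factors or a threshold of 0.01, and 39 to 45 with each library left out. Members higher, 4, were 6 with upper-quartile factors or library totals, 5 with voom, 3 with RLE factors, DESeq2, no filter or the 1 CPM filter, 2 at the threshold of 0.01 and 2 to 4 with each library left out. Calls over all 13466 tested genes moved too. In the main fit 3909 were lower and 3928 higher. Library totals gave 3200 lower and 4675 higher, and upper-quartile factors 3403 lower and 4426 higher. At the threshold of 0.01 they were 3190 lower and 3155 higher. The hnRNP rises, 1, were 0 with RLE factors, 0 with no low-count filter, 0 with the 1 CPM filter, 0 with DESeq2, 0 at the threshold of 0.01, 3 with upper-quartile factors, 3 with library totals, 2 with voom, and 0 to 1 with each library left out. The snRNP rises, 1, were 0 at the threshold of 0.01 and 0 to 1 with each library left out. Medians near 0 changed sign with library totals, to 0.00343 for the SR kinases, 0.00529 for the catalytic factors and 0.00514 for the minor spliceosome, whose median ranged between -0.0870 and 0.0438 with each library left out and was positive without DHT+WBM replicate 2; the cause was not tested. Relative to TMM, the median of all genes moved by 0.03 with upper-quartile factors and 0.05 with library totals. Replicate numbers were not taken to pair the samples, since deviations of same-numbered libraries correlated at 0.0498, 0.0374 and 0.0192, all under 0.1. Replicates 1 and 2 correlated best with their own number and replicate 3 with number 2. With the replicate block, 46 members were lower and 4 higher, with 7 SF3 genes lower in place of 6 (SF3B6 was added); the block changed no other call.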
